A study of Homo sapiens with 18 samples.

Results

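The 246 genes described here are the protein-coding genes of human chromosome 19 whose symbol is ZNF followed by a number and at most 1 letter. They were picked out by symbol and chromosome among 19974 protein-coding genes (the autosomes 1 to 22 plus X). The set was chosen with earlier results of these data known. The comparison sets were the 263 genes of the same symbol form on other chromosomes, the other 1205 protein-coding genes of chromosome 19, and all 19974 genes. Members had a median record length of 23151.5 bp, against 24694 bp for ZNF genes of other chromosomes, 12763 bp for the other genes of chromosome 19 and 24170.5 bp over all genes.

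The data are ChIP-seq peak lists (chromatin immunoprecipitation followed by sequencing). The cells were MDA-MB-231, a human cell line established from triple-negative breast cancer. KDM2B, MYC, H3K4me3, H2AK119ub and H3K27me3 were profiled in the parental line, and H3K27ac in cells carrying an empty vector. Each of the 9 groups held 2 libraries, 18 in all, among them 2% input libraries of both cell stocks and ATF4 libraries of the parental line, which were not analysed here. A single deposited list per target does not resolve the 2 libraries, so values come without replicate error and no test was made. The lists held between 20018 peaks for KDM2B and 306484 for H3K27me3, with no read counts, so depth is unknown. All 6 mesenchymal and basal marker genes examined, VIM and EGFR among them, carried H3K4me3 and H3K27ac at an end. These marks were at an end of 69.4% and 63.7% of all genes, and a difference from these shares was not tested. Among 6 luminal and epithelial genes, GATA3, FOXA1 and EPCAM carried both marks at an end, PGR carried H3K4me3 alone, and ESR1 and CDH1 carried neither there. Inside their records, however, ESR1 and CDH1 each had peaks of both marks.

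Most of these genes encode C2H2 zinc finger proteins, which read DNA through tandem arrays of fingers. Many also have a KRAB box, which binds the corepressor TRIM28 (also called KAP1) and through it the H3K9 methyltransferase SETDB1, and many such proteins silence retroelements. Chromosome 19 holds large clusters of them that arose by tandem duplication. KDM2B has a CXXC zinc finger that binds unmethylated CG dinucleotides and brings the Polycomb complex ncPRC1.1, a writer of H2AK119ub. PRC2 writes H3K27me3, while H3K4me3 and H3K27ac mark active promoters, and MYC is a transcription factor that binds at active promoters and prefers the E-box. H3K9me3, the mark most closely tied to the KRAB pathway, was not profiled in the libraries used here.

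Promoters of 5 members are shown by their sequence, to show promoters with and without peaks at different CG contents. Each is a window of 300 bases, 250 before and 50 from the listed start, from RefSeq on GRCh38.p14, printed 5′ to 3′ on the strand of the gene with every CG dinucleotide in capitals. The ZNF628 promoter (chr19:55476367-55476666, plus strand) has 36 CG dinucleotides and was touched by KDM2B, MYC, H3K4me3 and H3K27ac peaks. The ZNF44 promoter (chr19:12294563-12294862, minus strand) has 23 and was touched by the same 4 targets. Another listed promoter of ZNF44 (chr19:12294834-12295133), not printed here, has 17 and was touched by MYC, H3K4me3 and H3K27ac but not by KDM2B. The ZNF91 promoter (chr19:23395422-23395721, minus strand) has 11 and was touched by H3K4me3 and H3K27ac alone. The ZNF154 promoter (chr19:57709155-57709454, minus strand) has 14 and the ZNF135 promoter (chr19:58058989-58059288, plus strand) has 32, and neither was touched by a peak of any list.
ZNF628: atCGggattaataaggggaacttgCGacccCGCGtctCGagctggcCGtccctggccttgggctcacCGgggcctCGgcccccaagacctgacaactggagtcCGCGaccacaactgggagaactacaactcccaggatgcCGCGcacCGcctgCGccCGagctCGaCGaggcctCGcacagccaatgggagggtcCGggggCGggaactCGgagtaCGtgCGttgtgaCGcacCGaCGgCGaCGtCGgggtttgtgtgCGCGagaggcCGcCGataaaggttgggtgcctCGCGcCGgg
ZNF44: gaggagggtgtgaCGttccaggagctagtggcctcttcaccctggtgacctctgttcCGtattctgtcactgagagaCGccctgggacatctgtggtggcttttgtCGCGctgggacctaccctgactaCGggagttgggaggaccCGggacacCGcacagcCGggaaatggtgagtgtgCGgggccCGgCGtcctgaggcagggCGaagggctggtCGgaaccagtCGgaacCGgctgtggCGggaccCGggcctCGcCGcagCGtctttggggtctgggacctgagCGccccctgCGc
ZNF91: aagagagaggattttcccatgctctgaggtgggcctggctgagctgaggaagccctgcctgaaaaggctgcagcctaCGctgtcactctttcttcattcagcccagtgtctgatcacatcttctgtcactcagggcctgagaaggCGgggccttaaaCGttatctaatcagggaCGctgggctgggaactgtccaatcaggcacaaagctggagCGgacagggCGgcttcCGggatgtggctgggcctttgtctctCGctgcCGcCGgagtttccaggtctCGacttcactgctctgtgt
ZNF154: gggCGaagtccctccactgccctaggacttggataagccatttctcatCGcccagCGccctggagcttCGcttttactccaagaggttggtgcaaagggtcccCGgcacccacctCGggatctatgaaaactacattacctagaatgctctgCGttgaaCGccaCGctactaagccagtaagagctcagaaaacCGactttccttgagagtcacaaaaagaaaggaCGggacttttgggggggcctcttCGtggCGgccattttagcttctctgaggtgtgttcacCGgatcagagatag
ZNF135: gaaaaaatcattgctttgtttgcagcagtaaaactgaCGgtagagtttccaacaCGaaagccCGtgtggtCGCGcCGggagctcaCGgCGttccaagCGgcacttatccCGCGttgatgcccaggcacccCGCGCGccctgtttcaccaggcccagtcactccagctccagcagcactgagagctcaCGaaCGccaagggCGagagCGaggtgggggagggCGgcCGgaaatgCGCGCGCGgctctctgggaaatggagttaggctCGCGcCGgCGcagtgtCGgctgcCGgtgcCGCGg

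A target was counted at a gene if any base of a peak lay at most 1 kb from the first or last base of its record. KDM2B was at 74 of the 246 members (30.1%), against 58.2% of ZNF genes of other chromosomes, 45.0% of the other genes of chromosome 19 and 46.7% of all genes, which put the members lowest of the 4 sets. MYC was at 180 members (73.2%), against 82.1%, 65.3% and 64.2% of the same 3 sets. H3K4me3 was at 201 (81.7%), against 85.9%, 73.6% and 69.4%. H3K27ac was at 191 (77.6%), against 84.4%, 63.2% and 63.7%. The members thus carried MYC, H3K4me3 and H3K27ac more often than genes in general and KDM2B less often. For MYC and H3K27ac that order depended on the depth of the list: when each list was cut to its 15000 highest folds, MYC was at 43.1% of members and 52.9% of all genes, and H3K27ac at 45.1% and 46.7%.

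The Polycomb marks were the rarest. H2AK119ub was at 22 members (8.94%), against 22.4% of ZNF genes of other chromosomes, 79.1% of the other genes of chromosome 19 and 45.1% of all genes. H3K27me3 was at 5 members (2.03%), against 10.3%, 36.0% and 26.9%. Over the whole record KDM2B was found in 36.6% of members, MYC in 79.3%, H3K4me3 in 87.0%, H3K27ac in 85.4%, H2AK119ub in 15.4% and H3K27me3 in 3.25%, against 48.5%, 71%, 76.3%, 70.4%, 56.8% and 31.6% of all genes. H2AK119ub peaks covered on average 1.53% of a member's record and H3K27me3 peaks 0.643%, against 15.9% and 13.9% over all genes. No member had H2AK119ub over at least 50% of its record, and 1 member, ZNF536, had H3K27me3 over that much, against 13.1% and 13.5% of all genes. After peaks were merged across 3 kb, 8 members had H2AK119ub and 2 had H3K27me3 over at least 50%. Merging can raise coverage at any gene, and no share of all genes after merging is given here. These merged counts therefore cannot be set against the 13.1% and 13.5%.

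**Figure D1:**
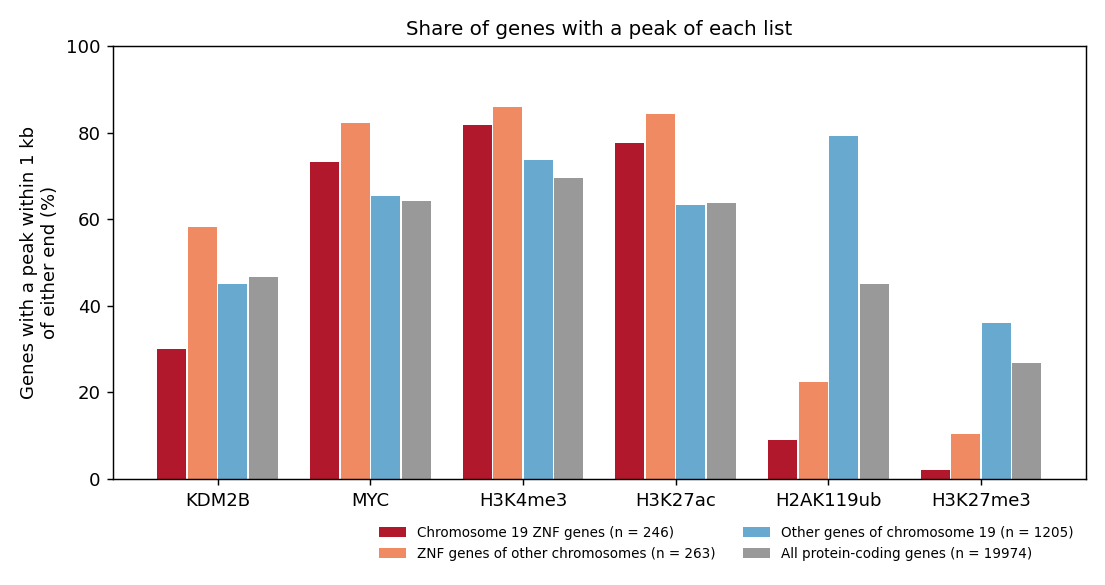
Share of genes, in percent, with a peak of each list within 1 kb of either end, for the 246 chromosome 19 ZNF genes, the 263 ZNF genes of other chromosomes, the other 1205 genes of chromosome 19 and all 19974 protein-coding genes. The members stand lowest of the 4 sets for KDM2B (30.1%), H2AK119ub (8.94%) and H3K27me3 (2.03%), and second to the ZNF genes of other chromosomes for H3K4me3 (81.7%).

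Gene records carry no strand, and a listed promoter gave one for 216 members. At the start of these genes KDM2B was at 31.0%, MYC at 73.1%, H3K4me3 at 81.0%, H3K27ac at 75.5%, H2AK119ub at 5.09% and H3K27me3 at 1.39%, against 46.9%, 63.9%, 68.6%, 63.2%, 31.7% and 20% of the 15813 genes with a strand. At the far end the shares of members were 1.39%, 6.02%, 17.1%, 7.41%, 6.48% and 1.85% in the same order of targets, against 4.55%, 13%, 23.2%, 18.6%, 32% and 19% of all genes. KDM2B was thus at the start of 67 members and the far end of 3. All 3 members with KDM2B at the far end had another gene's start there, and none of the 211 members without such a neighbour had KDM2B there. Many genes have several listed starts: within 1 kb of any of them, KDM2B was at 38.9% of members, MYC at 81.0%, H3K4me3 at 87.5%, H3K27ac at 84.3%, H2AK119ub at 6.48% and H3K27me3 at 1.39%, against 49.8%, 66.2%, 70.7%, 65.6%, 34.5% and 20.7% of all genes.

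Summits of KDM2B, MYC, H3K4me3 and H3K27ac at the starts of members lay mostly downstream of the start. The median KDM2B summit was 234 bp into the gene (quartiles 155 and 321 bp, 66 members), against 222 bp for ZNF genes of other chromosomes (quartiles 90 and 389 bp, 123 genes) and 148 bp for the other genes of chromosome 19 (quartiles -98.5 and 327 bp, 402 genes). MYC summits lay at a median of 168 bp and H3K4me3 summits at 281 bp, against 144 and 290 bp for ZNF genes of other chromosomes and 113 and 179 bp for the other genes of chromosome 19. The members' positions were thus close to those of ZNF genes elsewhere. The KDM2B peak at a member's end had a median width of 345 bp, against 488 bp at ZNF genes of other chromosomes and 553 bp over all genes. The H3K4me3 peak had a median width of 5431 bp, against 6069 bp over all genes.

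**Figure D2:**
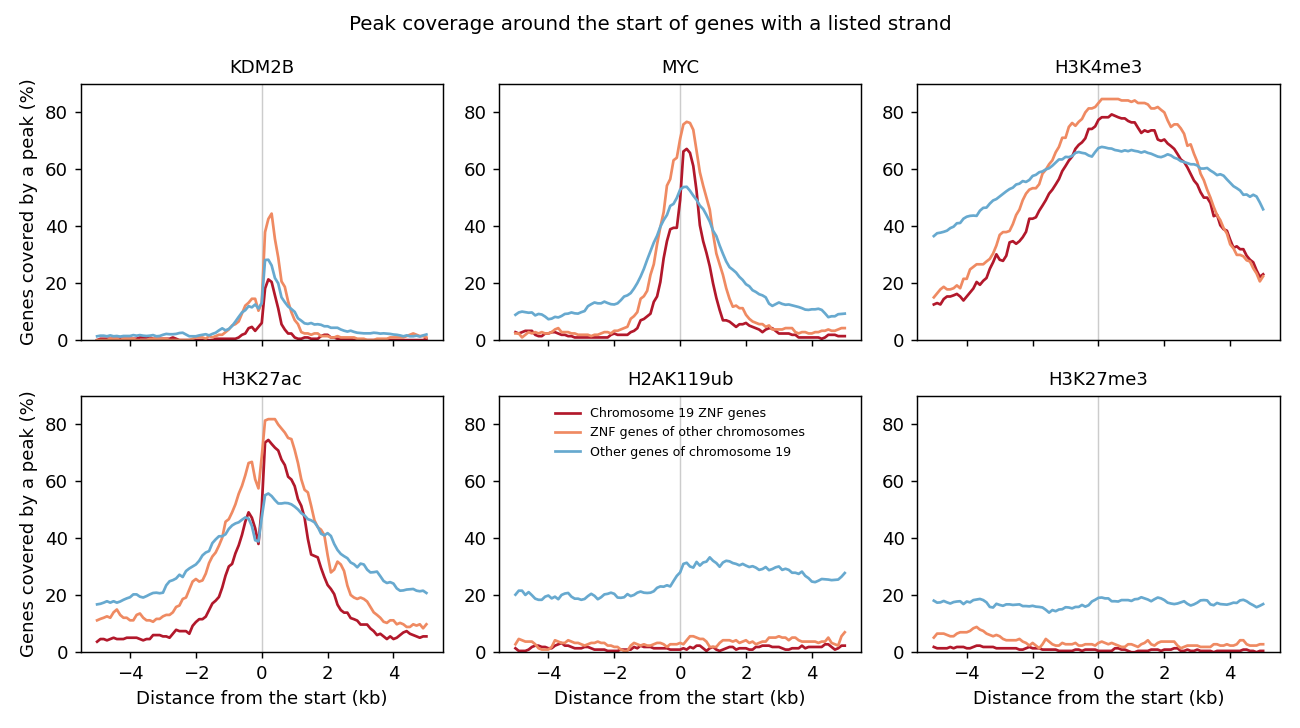
Share of genes with a strand, in percent, covered by a peak at each distance from the start in kb (positive values are inside the gene), for chromosome 19 ZNF genes (216 genes), ZNF genes of other chromosomes (214) and the other genes of chromosome 19 (969), 1 panel per target. KDM2B coverage of members was highest 200 bp inside the gene at 21.3% and MYC coverage at the same place at 67.1%, while H2AK119ub coverage of members was nowhere above 3.24%, against up to 33.3% for the other genes of chromosome 19.

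The fold is the authors' own value at the summit of a peak and is read here only within its list. Among members with a peak, the highest KDM2B fold per gene ran from 2.25 to 7.93 with a median of 3.4, against a median of 3.91 over all genes with KDM2B, and the members' median stood at the percentile 54.2 of the KDM2B list. MYC folds ran from 2.14 to 42 with a median of 6.56, against 11.4 over all genes with MYC. H3K4me3 folds ran from 2.02 to 64.0 with a median of 40.0, against 43.0. H3K27ac folds ran from 1.7 to 66.9 with a median of 16.3, against 24.7. Members therefore had H3K4me3 peaks of nearly the usual height and MYC and H3K27ac peaks of lower height than genes in general.

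The highest KDM2B folds were 7.93 at ZNF628, 6.26 at ZNF296, 5.84 at ZNF763, 5.57 at ZNF580 and 5.29 at ZNF823. ZNF628, ZNF296 and ZNF580 belong to the members known without a KRAB box. The highest MYC folds were 42.0 at ZNF146, 34.3 at ZNF296, 31.9 at ZNF507, 24.2 at ZNF121 and 22.4 at ZNF274. ZNF146 encodes a protein made almost wholly of fingers, and ZNF274 binds the ends of other zinc finger genes and recruits SETDB1 there. The highest H3K4me3 folds were 64.0 at a peak shared by ZNF490 and ZNF791, 63.0 at ZNF526, 59.7 at ZNF441 and 57.7 at ZNF574. The highest H3K27ac folds were 66.9 at a peak shared by ZNF580 and ZNF581, 66.7 at ZNF274, 55.3 at ZNF507 and 52.2 at ZNF837. Neighbouring members share peaks in this way throughout, with 22 of the 241 H3K4me3 peaks and 2 of the 82 KDM2B peaks at ends of members reaching more than 1 of them.

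Each member fell into 1 combination of the 6 targets. Both ends were pooled, so the targets of a combination can lie at different ends of a gene. The most frequent was MYC, H3K4me3 and H3K27ac with nothing else, at 98 members (39.8%), against 10.5% of all genes. The same 3 targets with KDM2B stood at 63 members (25.6%), against 26.3% of all genes. With H2AK119ub added to those 4, the combination stood at 9 members (3.66%), against 15.5% of all genes: ZNF555, ZNF57, ZNF77, ZNF653, ZNF792, ZNF428, ZNF296, ZNF628 and ZNF837. H2AK119ub with H3K27me3 alone, at 12.3% of all genes, was found at ZNF536 and no other member. No peak of any list was at either end of 41 members (16.7%), against 6.08% of ZNF genes of other chromosomes, 2.66% of the other genes of chromosome 19 and 9.82% of all genes.

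All 74 members with KDM2B also carried MYC, H3K4me3 and H3K27ac, as did nearly all genes with KDM2B (MYC at 99.3%, H3K4me3 at 99.5% and H3K27ac at 96.1% of 9321). Seen from the other side, 74 of the 201 members with H3K4me3 had KDM2B (36.8%), against 67.3% of the ZNF genes of other chromosomes with that mark and 66.9% of all genes with it. Of the members with KDM2B, 10 had H2AK119ub (13.5%) and 2 had H3K27me3 (2.7%), against 41.9% and 9.17% of all genes with KDM2B. Among ZNF genes of other chromosomes with KDM2B the shares were 24.2% and 3.92%. These counts pool both ends, so the 2 targets can lie at opposite ends of a gene, as at ZNF628, ZNF497 and ZNF446. None of the 42 promoter windows of members touched by KDM2B was touched by a peak of either Polycomb mark. Each Polycomb mark touched only 5 of all 268 windows of members (1.87%), so few or none would be met among 42 in any case. Of all windows of all genes H2AK119ub touched 17.5% and H3K27me3 14.3%. A relation of KDM2B to the Polycomb marks in these windows was not tested. Among members with H3K4me3, those with KDM2B had a median H3K4me3 fold of 45.2 (quartiles 40.3 and 51) and those without it 36.7 (quartiles 23.4 and 41.9). The median MYC fold was 8.19 (quartiles 5.32 and 13.7) with KDM2B and 5.6 (quartiles 3.8 and 8.33) without, over 74 and 106 members with a MYC peak. The median H3K27ac fold was 21.2 with KDM2B and 15 without, over 74 and 115 members. Members with KDM2B thus had higher peaks of the 3 other targets, with quartile ranges that overlap. H2AK119ub was at 10 members of each group, of 74 with KDM2B and of 127 without.

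The 5 members with H3K27me3 at an end were a mixed group. ZNF536, a neural zinc finger gene, had H3K27me3 over 73.9% of its record of 487995 bp in 220 peaks and H2AK119ub over 25.9% in 235 peaks, with a fold of 2.37 for H3K27me3 at its ends and no KDM2B, MYC, H3K4me3 or H3K27ac there. ZNF541 had H3K27me3 over 40.1% of its record with a fold of 3.29 at its ends, H2AK119ub over 15.3% with a fold of 2.98, and an H3K4me3 peak of fold 2.32 at its far end. ZNF574 had the highest folds of both Polycomb marks among members, 4.13 for H3K27me3 and 3.48 for H2AK119ub. Its H3K27me3 peak lay at the start of the record while a MYC peak of fold 3.34 lay at the far end. Another listed start of ZNF574 lies inside the record. The promoter window there was touched by MYC, H3K4me3 and H3K27ac peaks and by neither Polycomb mark. Over the record of ZNF574 the highest folds were 18.5 for MYC and 3.71 for KDM2B. ZNF497 carried all 6 targets, with KDM2B at its start (fold 3.87) and H3K27me3 (fold 3.03) and H2AK119ub (fold 3.07) at its far end. ZNF446 had KDM2B at its start (fold 2.88) and H3K27me3 at its far end (fold 2.54). In ZNF497 and ZNF446 the KDM2B peak and the H3K27me3 peak therefore lay at opposite ends of the gene.

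The 5 members with the largest share of their record under H2AK119ub were ZNF497 (35.3%), ZNF792 (27.5%), ZNF536 (25.9%), ZNF628 (24.9%) and ZNF574 (24.3%). At ZNF628 the H2AK119ub peak of the ends (chr19:55484070-55484318, fold 2.27) lay at the far end, while its highest KDM2B peak (chr19:55476910-55477369) lay inside the gene near the start. The 5 highest H2AK119ub folds at ends of members were 3.48 at ZNF574, 3.07 at ZNF497, 2.98 at ZNF541, 2.85 at ZNF792 and 2.65 at ZNF555. The median over the 22 members with the mark was 2.39, against 2.88 over all genes with it.

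Members lie in groups along the chromosome. A gap of at least 500 kb between records was taken to start a new cluster, which gave 20 clusters, of which 10 had at least 5 members and held 232 of them. KDM2B peaks covered 0.425% of the 14.4 Mb of these 10 clusters, and peaks of MYC 2.34%, of H3K4me3 11.6%, of H3K27ac 5.68%, of H2AK119ub 1.81% and of H3K27me3 2.01%. On the remaining 44.2 Mb of chromosome 19 the values were 1.5%, 6.87%, 18.9%, 12.1%, 20.9% and 22.3%. Another 91 protein-coding genes overlap the same spans. H2AK119ub was at 6.9% of the 232 members and 31.9% of those 91 genes, and H3K27me3 at 0.862% and 26.4%. H3K4me3 was at 81.0% of the members and 52.7% of the 91 genes, and KDM2B at 28.4% and 17.6%. Within the clusters both Polycomb marks were thus at a lower share of members than of the other genes. The members there had a median record length of 23254.5 bp and the other genes 14089 bp.

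The clusters differed most in KDM2B. In the cluster from ZNF653 to ZNF791 (chr19:11483429-12633834) KDM2B was at 18 of 25 members (72.0%). In the cluster from ZNF101 to ZNF254 (chr19:19668153-24129968) it was at 2 of 37 (5.41%), namely ZNF14 with a fold of 3.13 and ZNF708 with 3.62. H3K4me3 was at 22 of 25 and 29 of 37 members of these clusters, and MYC at 20 of 25 and 23 of 37. Among members with H3K4me3, KDM2B was at 81.8% in the first and 6.9% in the second. The median H3K4me3 fold was 48.1 from ZNF653 to ZNF791 and 34.0 from ZNF101 to ZNF254, the median H3K4me3 width 6247.5 and 2859 bp, and the median MYC fold 6.66 and 4.25. The clusters were picked out after their values were seen, as the highest and the lowest of those with at least 20 members.

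Along the cluster from ZNF653 to ZNF791 the KDM2B folds were 2.64 at ZNF653, 2.92 at ZNF627, 5.29 at ZNF823, 4.17 at ZNF441, 3.67 at ZNF491 and 3.34 at ZNF440. ZNF439 had no KDM2B peak, and ZNF69, ZNF700, ZNF763, ZNF433 and ZNF878 had folds of 3.48, 4.17, 5.84, 2.92 and 5.15. After ZNF844, ZNF20 and ZNF625, which had none, ZNF136 had 2.60 and ZNF44 had 4.97. ZNF563, ZNF442 and ZNF799 had no peak at either end but KDM2B folds of 3.22, 4.11 and 5.52 inside the record. The cluster closed with ZNF443 at 3.86, ZNF709 at 3.62, ZNF564 at 3.67 and a shared peak of 3.46 at ZNF490 and ZNF791. Counting peaks at an end or inside records, 21 of its 25 members had KDM2B. Over the record alone KDM2B was found in 36.6% of all members and 48.5% of all genes. With q under 1e-05 the count of all members with KDM2B over the record fell from 90 to 50. The cluster's own count under that limit is not given here.

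The other 8 clusters with at least 5 members lay between these. KDM2B was at 3 of 5 members from ZNF554 to ZNF77, 2 of 5 from ZNF302 to ZNF792, 8 of 23 from ZNF575 to ZNF180, and 14 of 43 from ZNF264 to ZNF446. It was at 9 of 39 members from ZNF175 to ZNF331, 6 of 26 from ZNF565 to ZNF573, 3 of 16 from ZNF628 to ZNF835, and 1 of 13 from ZNF414 to ZNF846. H3K4me3 varied far less, from 68.8% of members (ZNF628 to ZNF835) to 100% (ZNF554 to ZNF77). H2AK119ub was at none of the members in 3 of the clusters, which begin with ZNF101, ZNF565 and ZNF175. It was at 3 of 5 members from ZNF554 to ZNF77 and 4 of 16 from ZNF628 to ZNF835.

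**Figure D3:**
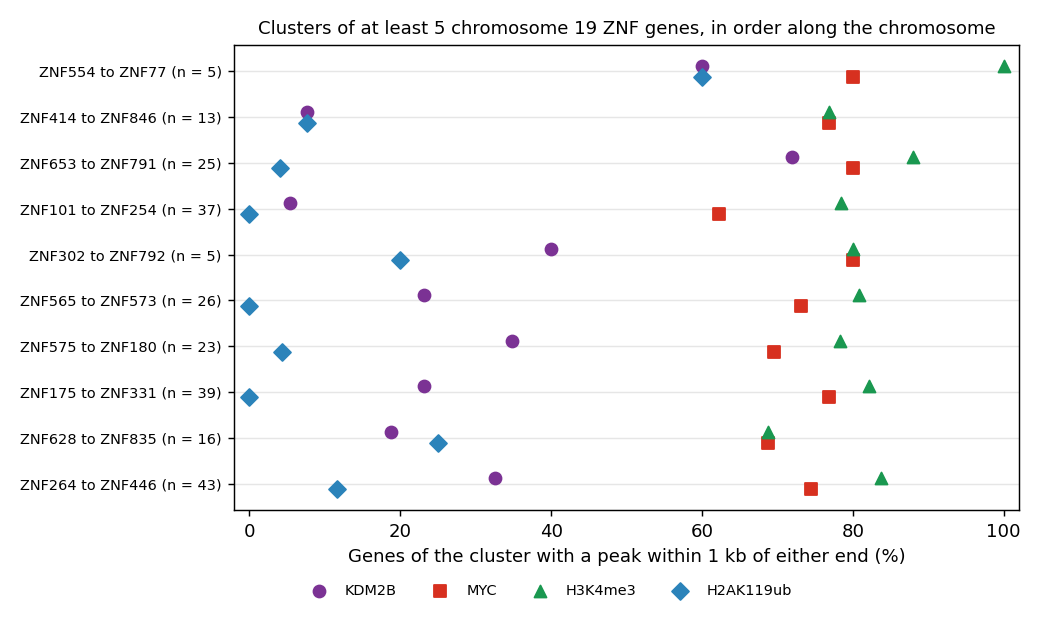
Share of the members of each cluster of at least 5 genes, in percent, with a peak within 1 kb of either end, for KDM2B (circles), MYC (squares), H3K4me3 (triangles) and H2AK119ub (diamonds), with the symbols set slightly apart in height so that equal shares stay visible. KDM2B runs from 5.41% (ZNF101 to ZNF254) to 72.0% (ZNF653 to ZNF791), while H3K4me3 stays between 68.8% and 100%.

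**Figure D4:**
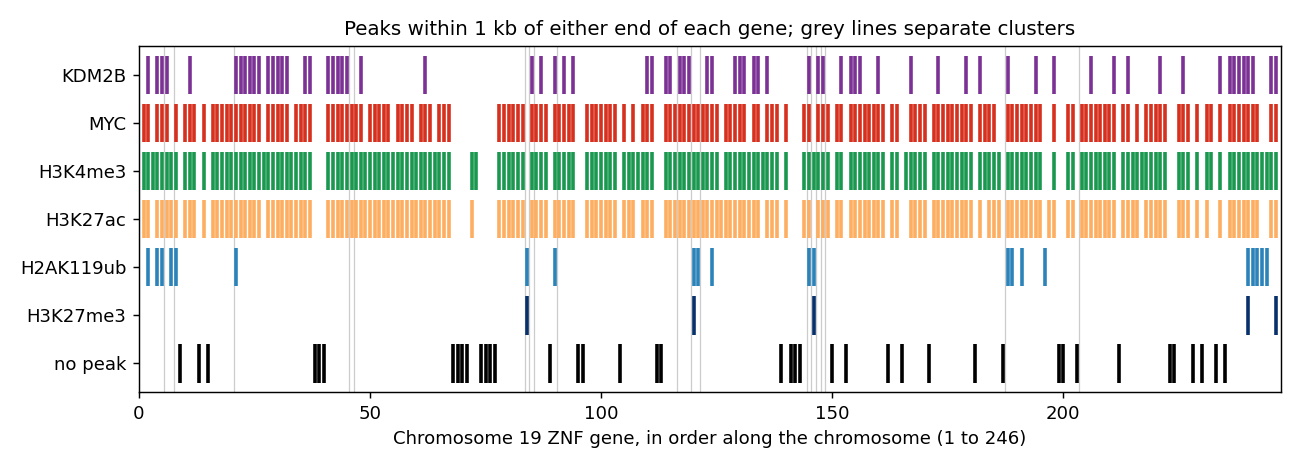
The 246 chromosome 19 ZNF genes in order along the chromosome, with a bar for each gene that had a peak of the target within 1 kb of either end, and black bars in the lowest row for the 41 genes with none. KDM2B bars crowd together in the cluster from ZNF653 to ZNF791, and the longest stretch of black bars lies in the cluster from ZNF101 to ZNF254.

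Promoter sequences were listed for 216 members, 268 windows of 300 bases in all. A KDM2B peak touched 42 of them (15.7%), a MYC peak 183 (68.3%) and an H3K4me3 peak 219 (81.7%), against 30.5%, 59% and 66.3% of the 22156 windows of all genes. The windows end 50 bases into the gene, short of the median KDM2B summit at 234 bp. Windows touched by KDM2B had a median of 25 CG dinucleotides (quartiles 22 and 29.75, range 13 to 37), as in the ZNF628 and ZNF44 sequences. Windows with H3K4me3 and no KDM2B, as at ZNF91, had a median of 19 (quartiles 14 and 24, range 3 to 40, 177 windows). Over all genes the median was 31 with KDM2B and 14 in all windows without it, whether or not they had H3K4me3. The matching median of members, over all 226 windows without KDM2B, was 19.

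Windows of members with no peak of any list, 44 of 268 (16.4%, against 17.1% of all windows), had a median of 18.5 CG dinucleotides (quartiles 12.5 and 29.25, range 2 to 49). Over all genes such windows had a median of 4. The median of members' windows without a peak was thus close to that of windows with H3K4me3 and no KDM2B, with a higher upper quartile, and ZNF135 with 32 shows a CG-rich case. The median CG content of a cluster's windows did not follow, in order, its share of members with KDM2B at an end, a wider region. The lowest median, 10, was in the cluster from ZNF101 to ZNF254, but the cluster from ZNF653 to ZNF791 came next with 16.5, and the cluster from ZNF628 to ZNF835 had the highest with 29. In the windows themselves, KDM2B touched 0 of 30 at a median of 10, 7 of 26 at 16.5, and 0 of 13 and 1 of 23 at 18. It touched 7 of 45 and 7 of 43 at 21, 6 of 45 at 23, 1 of 6 at 23.5, 3 of 4 at 26 and 5 of 17 at 29. A relation between CG content and KDM2B across clusters was not tested. The E-box CACGTG, which reads the same on both strands, was in 12 of the 268 windows (4.48%), against 5.56% of the windows of ZNF genes of other chromosomes and 8.34% of all windows. A MYC peak touched 6 of the 12 windows of members with this motif and 177 of the 256 without it, against 15 of 16 and 206 of 272 for ZNF genes of other chromosomes and 1345 of 1847 and 11717 of 20309 for all genes. Over all genes a MYC peak was thus more frequent in windows with the motif, and the 12 windows of members are too few to read an order from.

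**Figure D5:**
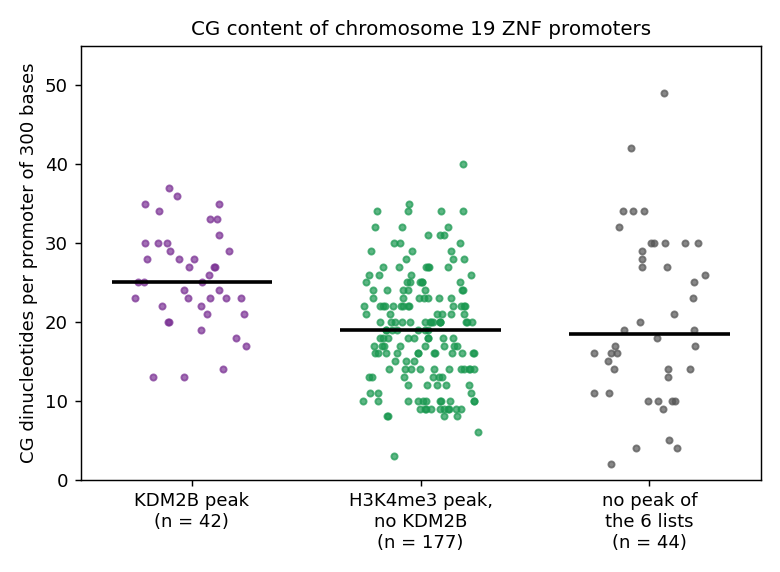
CG dinucleotides per promoter window of 300 bases for members, with 1 point per window and the median as a line, for windows touched by a KDM2B peak (42 windows), by an H3K4me3 peak and no KDM2B peak (177) and by no peak of the 6 lists (44). The medians are 25, 19 and 18.5, and the windows with no peak spread from 2 to 49.

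Of the 41 members with no peak at either end, 16 had a peak elsewhere in the record and 25 had none there either (10.2%, against 5.66% of all genes). Among the 32 with a listed start, 10 had a peak within 1 kb of another listed start. ZNF558 had a MYC fold of 29.3 and an H3K4me3 fold of 52.6 inside its record. The longest run was in the cluster from ZNF101 to ZNF254: ZNF208, ZNF257, ZNF676 and ZNF729, then ZNF99, ZNF723, ZNF728 and ZNF730, had no peak of any list over the whole record. In the middle of the run ZNF98 had H3K4me3 with a fold of 10.1 and H3K27ac with 2.64, and ZNF492 had H3K4me3 with a fold of 4.28. These genes were picked out after their values were seen. Members of such clusters resemble each other in sequence, and the sources used here do not say how reads with several matches were treated. The part of such reads in the missing peaks was not tested.

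The 8 members known as retroelement repressors all carried MYC, H3K4me3 and H3K27ac at an end and no Polycomb mark there. MYC, H3K4me3 and H3K27ac were at 73.2%, 81.7% and 77.6% of all members and 64.2%, 69.4% and 63.7% of all genes. H2AK119ub and H3K27me3 were at 8.94% and 2.03% of all members and 45.1% and 26.9% of all genes. A difference from any of these shares was not tested. ZNF91, which represses SVA elements, had folds of 4.6 for MYC, 40.0 for H3K4me3 and 21.3 for H3K27ac, and no KDM2B. ZNF93, which represses LINE-1 elements, had 3.79, 41.4 and 17.1, and no KDM2B. ZNF441 and ZNF808 carried KDM2B, with folds of 4.17 and 3.48. ZNF649 had the lowest H3K4me3 fold of the list, 16.0, and ZNF417, ZNF587 and ZNF765 had 47.0, 38.6 and 42.6.

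Among the 12 members known to be methylated in tumours, KDM2B was at none, H3K4me3 at 3 (25%) and H2AK119ub at 1 (8.33%), against 30.1%, 81.7% and 8.94% of all members and 46.7%, 69.4% and 45.1% of all genes. No peak was at either end of 8 of the 12, against 16.7% of all members and 9.82% of all genes. The list was chosen with earlier results known, and the difference was not tested. These 8 were ZNF135, ZNF154, ZNF177, ZNF331, ZNF382, ZNF471, ZNF671 and ZNF677. ZNF331, an imprinted gene, had peaks inside its record with folds of 2.87 for KDM2B, 3.91 for MYC, 16.8 for H3K4me3, 11.6 for H3K27ac and 2.24 for H2AK119ub. ZNF671 had an H2AK119ub peak of fold 2.12 inside its record, and the other 6 had no peak over the record. ZNF559 carried MYC, H3K4me3 and H3K27ac with folds of 5.86, 42.7 and 17.2. ZNF418 had H3K4me3 at 10.5 and MYC at 2.4, ZNF582 had H3K27ac alone at 8.08, and ZNF132 had H3K4me3 at 2.02 and H2AK119ub at 2.21. DNA methylation was not measured in these libraries.

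The 19 members known without a KRAB box carried H2AK119ub at 12 (63.2%), KDM2B at 8 (42.1%), MYC at 17 (89.5%), H3K4me3 and H3K27ac at 18 each (94.7%) and H3K27me3 at 2 (10.5%). The shares of all genes were 64.2% for MYC, 69.4% for H3K4me3, 63.7% for H3K27ac and 26.9% for H3K27me3. H2AK119ub was at 79.1% of the other genes of chromosome 19 and 45.1% of all genes and KDM2B at 45.0% and 46.7%, so the listed genes lay between these shares for H2AK119ub and slightly below them for KDM2B. The other 227 members carried H2AK119ub at 10 (4.41%), KDM2B at 66 (29.1%), MYC at 163 (71.8%), H3K4me3 at 183 (80.6%), H3K27ac at 173 (76.2%) and H3K27me3 at 3 (1.32%). KRAB boxes were not counted, so these 227 can include members without one. Of the 22 members with H2AK119ub, 12 were therefore in this short list. H2AK119ub peaks covered on average 11.4% of the record in the list and 0.705% in the other members. All 41 members without a peak at an end were outside the list. Such genes made up 16.7% of all members and 9.82% of all genes, so few would be met among 19 genes, and the difference was not tested. The listed genes are shorter, with a median of 7890 bp against 23979 bp, so their windows take in more of the gene, and the part of length in the difference was not tested.

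The list of KRAB pathway partners held 11 genes. They ran from TRIM28 and SETDB1 to the HUSH subunits TASOR, MPHOSPH8 and PPHLN1 and the HP1 genes CBX1, CBX3 and CBX5. All 11 carried MYC, H3K4me3 and H3K27ac and neither Polycomb mark at an end. Over all genes MYC was at 64.2%, H3K4me3 at 69.4%, H3K27ac at 63.7%, H2AK119ub at 45.1% and H3K27me3 at 26.9%. Inside their records DNMT1 and MORC2 had H2AK119ub peaks with folds of 2.69 and 2.24. KDM2B was at 5 of them (45.5%), next to the 46.7% of all genes: CBX1 (4.54), CBX3 (4.30), TASOR (3.25), MORC2 (2.78) and DNMT1 (2.78). TRIM28 and SETDB1 had none, with MYC folds of 11.6 and 10.7. Of 16 other zinc finger genes of chromosome 19 with symbols such as ZFP, ZSCAN or ZIM, KDM2B was at 4 (25%), H3K4me3 at 8 (50%) and H2AK119ub at 1 (6.25%), against 30.1%, 81.7% and 8.94% of members and 46.7%, 69.4% and 45.1% of all genes. No peak was at either end of 8 of the 16, against 16.7% of members and 9.82% of all genes. The 4 with KDM2B were ZFP14, ZFP30, ZFP82 and ZFP36, of which ZFP36 is a CCCH finger gene that binds RNA. PEG3 and ZIM2, an imprinted pair, were among the 8 without a peak at an end.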

How the data were processed

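Peak lists of 6 targets in MDA-MB-231 cells were analysed, and the 18 libraries were grouped by antibody and cell stock. The labels do not tell whether the 2 libraries of each group are separate cultures. Per the labels' protocols, chromatin was digested with an enzyme. The submitters' processing notes name MACS2 2.2.7.1, SAMtools 1.6, Bowtie2 2.4.5, Trim Galore without a version, and genome build hg38. The sources used here do not give the control of each list, any pooling of libraries, or the treatment of reads with several matches. All lists are narrow-peak lists, also those of the broad marks, which can split a domain into many peaks.

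The deposited score equals 10 times the −log10 q-value, cut to whole numbers, in 100% of peaks. The deposited ratio is the authors' fold at the summit. The deposited −log10 q-value comes from the authors' peak caller. Per list, the highest q-value was 0.0498 to 0.05. The deposited summit position counts from the start of each peak. The files hold no read counts, so depth and counting error are unknown, and 0 peak columns were without a sample.

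Gene records, promoter windows and strand came from RefSeq on GRCh38.p14, the same build. A promoter gave a strand for 216 members and none for 30. Members and lists were chosen with earlier results of these data known. Shares were counted with at least 1 bp of overlap and described beside those of all genes, with no test, since each target has a single list and neighbouring genes share peaks. Members named are the 5 with the highest fold per target, the 5 with the largest share under a Polycomb mark, all of any count of 5 or fewer, the first and last of each cluster, and the fixed lists. Other names were chosen after their values were seen. The planned counts of KRAB boxes and zinc fingers in proteins were not run, as no protein table was used here. As alternatives, windows were set to 500 or 2500 bp, lists were cut at q under 1e-05 or to their 15000 highest folds, and counts used summits in place of peaks, 1 member per set of overlapping windows, the start only, any listed start, records with flanks, peaks merged across 3 kb, a limit of 25% covered and a gap of 1 Mb. Counting was tested on simulated data. Python 3.11.15, pandas 2.3.3, numpy 2.4.6 and matplotlib 3.10.9 were used.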

Additional observations from a re-analysis of the deposited data

How the results depend on the processing

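Counts of members moved most with the threshold on peaks. With q under 1e-05, KDM2B was at an end of 39 members in place of 74 and over the record of 50 in place of 90, H2AK119ub at 5 in place of 22 and 9 in place of 38, and H3K27me3 at 3 in place of 5 and 5 in place of 8. With each list cut to its 15000 highest folds, MYC was at 106 in place of 180 and over 123 in place of 195, H3K27ac at 111 in place of 191 and over 120 in place of 210, H2AK119ub at 1 and over 2, and H3K27me3 at 0 and over 1. With the promoter end only, H2AK119ub was at 11 members and H3K27me3 at 3. Within 1 kb of any listed start, an alternative chosen after seeing the data, the counts were 14 and 3. Windows of 2500 bp put H3K27me3 at 8. At least 50% of the record was under H3K27me3 in 2 members after merging peaks across 3 kb and 2 had at least 25%, in place of 1, and under H2AK119ub in 8 after merging and 3 had at least 25%, in place of 0. H3K4me3 counts stayed within 1.5 times under every alternative run, and a gap of 1 Mb gave 16 clusters in place of 20. The shares of members with KDM2B, H3K4me3, H2AK119ub and H3K27me3 kept their side of the shares of all genes with windows of 500 and 2500 bp, q under 1e-05, the 15000 highest peaks and summits. The alternative pattern for the KRAB box was not run. No paired analysis was possible because each target has a single list that does not resolve the libraries.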
